A study of Mus musculus with 2 samples.

Results

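Tight junctions seal neighbouring epithelial cells to each other near their apical side, and the 9 genes Cldn1, Cldn3, Cldn4, Cldn6, Cldn7, Ocln, Marveld2, F11r and Tjp1 encode membrane proteins and a scaffold of these junctions. They were taken by name from the 43629 Ensembl genes counted in Dicer_KO mouse embryonic stem cells (mESCs), and all 9 symbols were found. The polyA RNA of 2 cultures was sequenced, one at passage 7 (replicate 1) and one at passage 4 (replicate 2), from cells of a 129/Ola background whose genotype is Dicer knockout in both. The cells derive from E14TG2a, an established mESC line, by deletion of part of Dicer1 with pairs of Cas9 guides and sorting of single cells, so that a library stands for descendants of few cells. The study describes a pair of deletions, and the sample labels do not say which one each library carries. Wild-type (WT) cells are not analysed here, and no value below is a change relative to WT. All comparisons are between the libraries of 1 condition, in which line, passage and library cannot be told apart, and no p-value was computed.

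Claudins span the membrane and form the strands of the junction, where each claudin sets how tight or how ion-selective the seal is. Occludin (Ocln) and tricellulin (Marveld2) are further membrane proteins of the strands, the latter at corners where cells meet, and F11r encodes the adhesion molecule JAM-A. Tjp1 encodes ZO-1, a cytoplasmic scaffold that ties claudins to actin. In the early mouse embryo such junctions are known from the outer cells of the morula and from the trophectoderm, the epithelium of the blastocyst, while mESCs resemble cells of its interior.

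The libraries held 41710122 counts on genes in replicate 1 and 41566184 in replicate 2. Replicate 2 was scaled to replicate 1 by 1.09, the ratio of library sizes after TMM (a scaling by the bulk of genes), and log2 ratios of replicate 1 over replicate 2 were taken after adding 1 count. Intervals are 95% intervals of counting error only. Dicer1 had 1343 and 1510 counts, or 32.2 and 36.3 CPM (counts relative to the library total), which without WT is no check of the deletion. All 8 pluripotency genes checked were well covered, from Klf4 with 3750 and 2562 counts to Dppa5a with 199860 and 84835, and Pou5f1 had 39069 and 43025. Of 7 fibroblast markers, the collagen genes Col1a1 (20 and 18 counts), Col1a2 (6 and 1) and Col3a1 (1 and 0) as well as Twist2 (3 and 0) and Dcn (0 and 19) were near 0, while Thy1 had 823 and 621 counts and Pdgfrb 285 and 91.

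Cldn4, Cldn6, Cldn7 and Cldn3 had the highest mean levels per length of all claudins, although Cldn12 was above Cldn3 in replicate 2. Cldn4, which seals many epithelia, had 15595 counts in replicate 1 and 7550 in replicate 2. Per length its level was 197.7 RPKM (counts per kb of exon, relative to the scaled library size) in replicate 1 and 104.2 RPKM in replicate 2, a mean of 150.9 ± 66.1 RPKM (SD, n = 2). This level was above that of 98.6% of the 17651 genes that averaged 10 or more counts and had a known exon length. Cldn6, a claudin known from embryonic epithelia and pluripotent cells, had 3218 and 1160 counts, which gave 43.0 and 16.9 RPKM. Cldn7, which also occurs along the lateral membrane of epithelial cells, had 2825 and 943 counts, or 33.4 and 12.1 RPKM. Cldn3, a sealing claudin, had 968 and 325 counts, or 17.7 and 6.47 RPKM. In each of these claudins replicate 1 was the higher library.

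Cldn1, the claudin of the skin barrier, was by contrast almost without reads. It had 5 counts in the first library and 2 in the second, and 3 counts correspond to 0.0719 and 0.0722 CPM. Its level of 0.120 CPM in replicate 1 (95% Wilson interval 0.0512 to 0.281) and 0.0481 CPM in replicate 2 (0.0132 to 0.176) did not differ beyond counting error. Cldn1 was the only one of the 9 genes that averaged under 10 counts and was left out of the counts of genes below.

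These 4 claudins lie on 3 chromosomes (GRCm38). Cldn4 (ENSMUSG00000047501) is on the minus strand of chromosome 5 at 134945119 to 134946934, and Cldn3 (ENSMUSG00000070473) is on its plus strand at 134986214 to 134987472, 39279 nt away with no other annotated gene between them. Cldn6 (ENSMUSG00000023906) lies on the plus strand of chromosome 17 at 23679249 to 23682446, and Cldn7 (ENSMUSG00000018569) on the plus strand of chromosome 11 at 69964779 to 69967885. The windows from 250 bases before to 50 bases after their RefSeq start (GRCm38.p6) are given because these claudins had the highest mean levels. Capitals mark CACCTG or its reverse complement CAGGTG, the E-box that the epithelial repressors SNAI1 and ZEB1 are known to bind.

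Cldn3, chr5:134985964-134986263, plus strand: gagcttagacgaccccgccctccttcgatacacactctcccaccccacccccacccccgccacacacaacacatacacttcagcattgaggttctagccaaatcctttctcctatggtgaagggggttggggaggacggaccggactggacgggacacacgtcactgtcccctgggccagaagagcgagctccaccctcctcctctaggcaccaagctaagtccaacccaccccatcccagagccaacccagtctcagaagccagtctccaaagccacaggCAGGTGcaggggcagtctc

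Cldn4, chr5:134946885-134947184, minus strand: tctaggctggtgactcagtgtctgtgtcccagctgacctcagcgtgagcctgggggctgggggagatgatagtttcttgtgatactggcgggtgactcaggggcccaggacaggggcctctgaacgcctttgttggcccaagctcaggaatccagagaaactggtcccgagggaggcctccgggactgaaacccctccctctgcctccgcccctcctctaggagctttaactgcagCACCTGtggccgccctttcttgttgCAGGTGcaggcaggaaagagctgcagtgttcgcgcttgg

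Cldn6, chr17:23679115-23679414, plus strand: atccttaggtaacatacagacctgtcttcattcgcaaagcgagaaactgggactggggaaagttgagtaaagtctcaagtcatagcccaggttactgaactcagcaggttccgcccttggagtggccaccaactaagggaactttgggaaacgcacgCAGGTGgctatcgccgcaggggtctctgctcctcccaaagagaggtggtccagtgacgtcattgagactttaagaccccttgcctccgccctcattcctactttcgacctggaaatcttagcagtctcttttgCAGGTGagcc

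Cldn7, chr11:69964529-69964828, plus strand, the more upstream of 2 RefSeq starts: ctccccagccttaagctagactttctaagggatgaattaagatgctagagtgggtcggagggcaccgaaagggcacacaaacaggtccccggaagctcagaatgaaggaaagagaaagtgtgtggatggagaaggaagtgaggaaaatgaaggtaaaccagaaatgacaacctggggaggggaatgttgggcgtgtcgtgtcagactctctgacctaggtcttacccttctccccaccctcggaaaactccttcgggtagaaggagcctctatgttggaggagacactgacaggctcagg

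Cldn3 held 1 E-box, which began 31 bases after the start. Cldn4 held 2, beginning at -14 and 11, and Cldn6 held 2, at -93 and 40. In the Cldn7 window these letters did not occur. Of the 9 genes, 6 had the E-box in their window (Cldn3, Cldn4, Cldn6, Ocln, F11r and Marveld2), against 20.2% of the 32851 RefSeq windows of this length. The letters AACCGG, part of the motif of the epithelial activators of the GRHL family, were in 0 of the 9 windows and in 6.83% of all. GGGCGG, the core of SP and KLF sites, was in 8 of the 9 windows and in 35.7% of all, and GCCNNNGGC, the AP-2 motif, in 4 of the 9 and in 16.6% of all. TATAAA was found for Marveld2 alone, 223 bases before the start, and in 13.6% of all windows. Motifs were searched on both strands and could overlap, and they are letters found, not sites shown to be bound. The GC content of the windows was 52.0% to 65.3%, beside a median of 52.7% over all windows. The highest was that of Tjp1, whose RefSeq start lies inside the annotated gene and not at its upstream end.

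**Figure D1:**
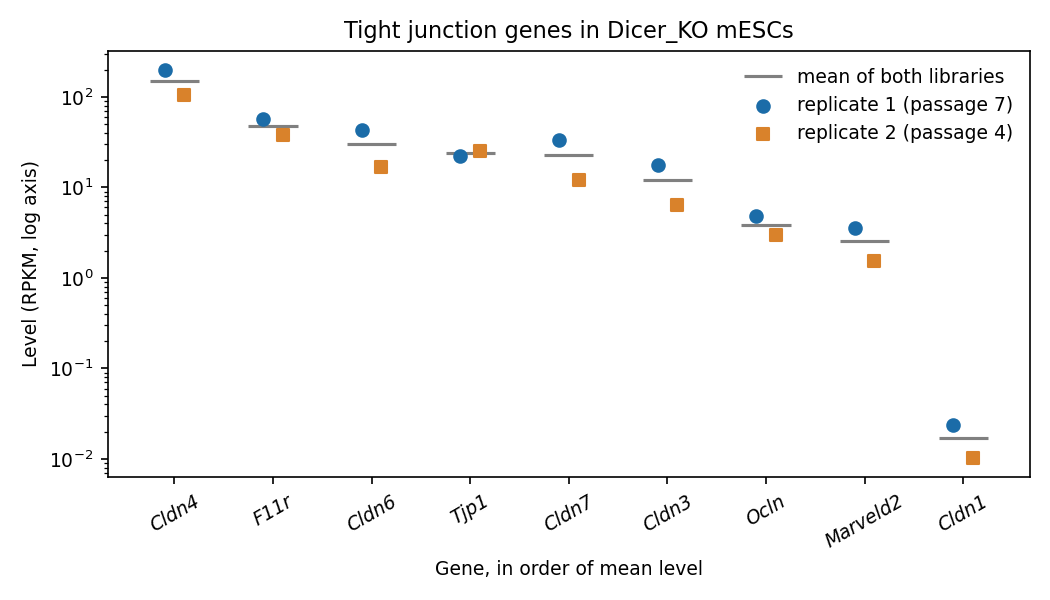
Level of each of the 9 genes in RPKM (log axis) in replicate 1 (circles) and replicate 2 (squares), with the mean of both as a line. Cldn4 is highest at 197.7 and 104.2 RPKM, Cldn1 is near 0, and Tjp1 is the gene whose square lies above its circle.

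The membrane proteins that accompany claudins covered a wide range. F11r, whose product JAM-A recruits polarity proteins, had 6556 counts in replicate 1 and 4067 in replicate 2, or 56.7 and 38.3 RPKM (47.5 ± 13.0, SD, n = 2). Ocln had 876 and 501 counts, or 4.78 and 2.97 RPKM. Marveld2 had 519 and 206 counts, or 3.53 and 1.53 RPKM. Ocln (chromosome 13, 100496507 to 100552718) and Marveld2 (100595957 to 100616971) both lie on the minus strand of that chromosome, with the lincRNA gene Gm48596 annotated between them, and both were higher in replicate 1. The scaffold gene Tjp1 had 7492 and 7921 counts, or 22.1 and 25.4 RPKM (23.7 ± 2.35, SD, n = 2), and was the only one of the 9 that was lower in replicate 1. F11r lies on chromosome 1 at 171437535 to 171464603 (plus strand), Tjp1 on chromosome 7 at 65296165 to 65527781 (minus strand) and Cldn1 on chromosome 16 at 26356642 to 26371841 (minus strand).

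In order of mean level the genes were Cldn4, F11r, Cldn6, Tjp1, Cldn7, Cldn3, Ocln, Marveld2 and Cldn1. Neighbours in this order were apart in 3 cases, where the lower library of one exceeded the higher library of the next: Cldn4 over F11r (104.2 against 56.7 RPKM), Cldn3 over Ocln (6.47 against 4.78 RPKM) and Marveld2 over Cldn1. F11r and Cldn6, Cldn6 and Tjp1, Tjp1 and Cldn7, Cldn7 and Cldn3, and Ocln and Marveld2 overlapped. The order depended on the length used: with that of the longest transcript, Cldn7 (33.2 RPKM) came before Cldn6 (31.8 RPKM) and Tjp1 (26.3 RPKM). Within a library the order was nearly the same as over both. Tjp1 stood at place 5 in replicate 1 and at place 3 in replicate 2, where it passed Cldn6 and Cldn7.

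Between the libraries, 7 of the 8 genes that averaged 10 or more counts were higher in replicate 1, where 51.3% of all 17788 such genes were. Cldn7, Cldn3, Cldn6 and Marveld2 were more than 2-fold higher in replicate 1, which is 4 of 8, and none was more than 2-fold lower. Among all genes, 14.2% were more than 2-fold higher in replicate 1 and 21.4% differed by more than 2-fold in either direction. Of the 13005 genes that averaged 100 or more counts, as all 8 genes did, 9.93% were more than 2-fold higher. The median log2 ratio was 1.07 for the 8 genes and 0.02 for all genes. These shares describe genes that differ between libraries of 1 condition and are not a test of the condition.

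Cldn7 was 2.75-fold higher in replicate 1 (95% interval 2.56 to 2.97). For Cldn3 the difference was 2.73-fold (2.41 to 3.11) and for Cldn6 it was 2.55-fold (2.38 to 2.73). The interval of Marveld2, at 2.31-fold (1.97 to 2.73), reached below 2-fold. Cldn4 was just inside that limit at 1.90-fold (1.85 to 1.95), with a log2 ratio of 0.92. Scaled by total counts its log2 ratio was 1.04, which made 5 of 8 genes more than 2-fold higher, beside 2874 of all 17788 genes. Ocln was 1.61-fold higher (1.44 to 1.80) and F11r 1.48-fold (1.42 to 1.54). Tjp1, at 0.869-fold (0.842 to 0.897), differed from equal levels by more than counting error but in the other direction. With the trend over all genes on base composition and transcript length removed, the log2 ratios were 1.13 for Cldn7, 1.09 for Marveld2, 1.08 for Cldn6, 0.97 for Cldn3 and 0.58 for Cldn4. That of Ocln rose from 0.68 to 0.85, and those of F11r and Tjp1 were 0.43 and -0.27. The number of the 8 genes beyond 2-fold was then 3, since Cldn3 (GC content 62.8%) was no longer among them. Among all genes it was 3560 of 17637.

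**Figure D2:**
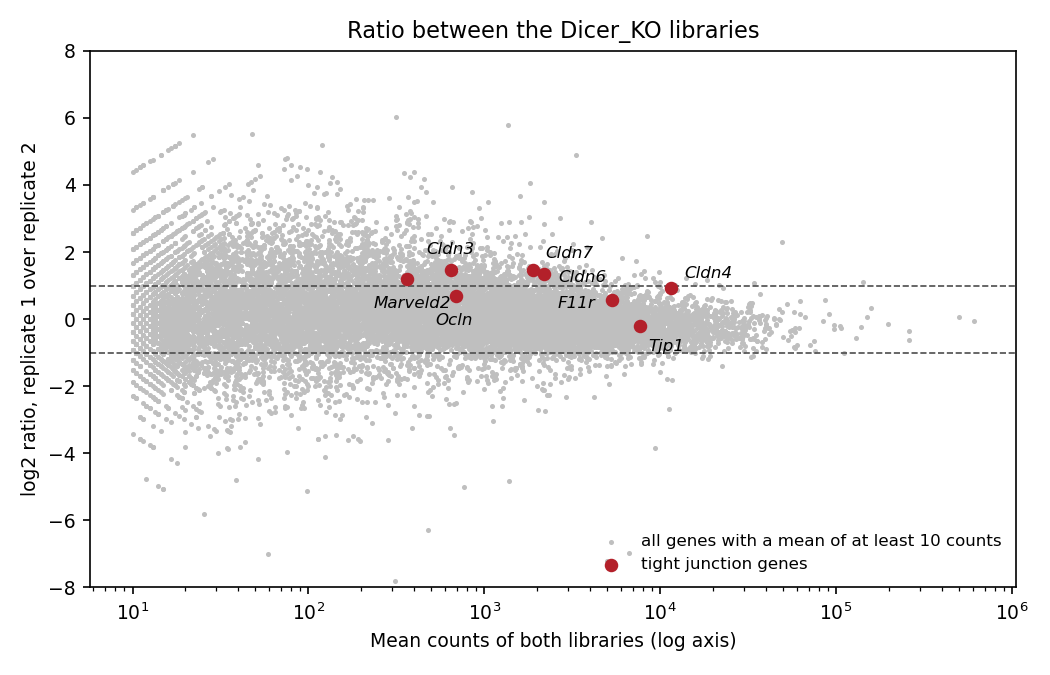
Log2 ratio of replicate 1 over replicate 2 against the mean counts (log axis) for the 17788 genes averaging 10 or more counts in grey, with the 8 tight junction genes in red and 2-fold as dashed lines. Cldn3, Cldn6, Cldn7 and Marveld2 lie above the upper line, Cldn4 (0.92) just under it, and Tjp1 (-0.20) below 0.

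The claudin family as a whole comprised 31 genes found in the files, of which 21 had at least 1 count in replicate 1 and 19 in replicate 2. Their levels summed to 311.8 RPKM in replicate 1 and 153.8 RPKM in replicate 2. Cldn4 made up 63.4% of this sum in replicate 1 and 67.7% in replicate 2. Cldn6 made up 13.8% and 10.98%, Cldn7 10.7% and 7.89%, and Cldn3 5.68% and 4.21%. The 4 claudins together held 93.6% and 90.8% of the sum. Cldn12, a claudin without the usual scaffold-binding end, had 2011 and 1682 counts, more than Cldn3 in both libraries. At 10.95 and 9.97 RPKM it was nearly equal in both libraries, below Cldn3 (17.7 RPKM) in replicate 1 and above it (6.47 RPKM) in replicate 2. Its share was 3.51% in replicate 1 and 6.48% in replicate 2.

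**Figure D3:**
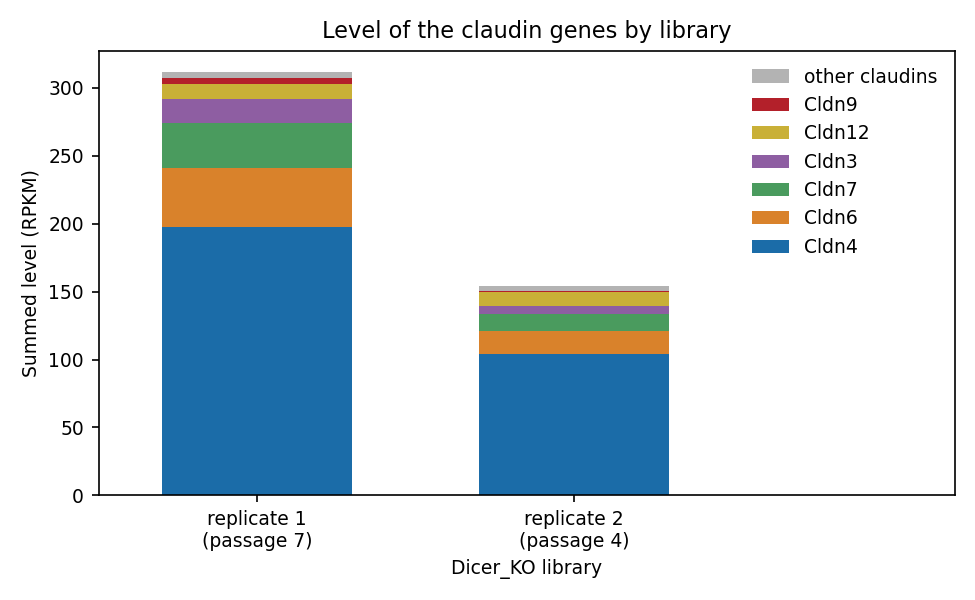
Summed level of the 31 claudin genes in RPKM in each Dicer_KO library, stacked by gene. The column reaches 311.8 RPKM in replicate 1 and 153.8 RPKM in replicate 2, and Cldn4 is the largest part of both.

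Of the 26 claudins outside the 9 genes, 12 averaged 10 or more counts. Among all genes with that minimum, 14.2% were more than 2-fold higher in replicate 1 and 21.4% differed by more than 2-fold in either direction. Among the 12 claudins, 6 were more than 2-fold higher in replicate 1 (Cldn9, Cldn10, Cldn14, Cldn18, Cldn19 and Cldn23) and 3 more than 2-fold lower (Cldn2, Cldn13 and Cldn34c1). Except Cldn9, these genes are named after their values were seen, and each had fewer than 100 counts on average. Of these 9 genes, 5 had under 5 counts in 1 library and passed the minimum through the other, so the tally is no support for a shared direction. Cldn9, which lies 137 nt from the end of Cldn6 on the opposite strand, had 289 counts in replicate 1 and 64 in replicate 2, a 4.10-fold difference (3.15 to 5.53). Cldn5, the claudin of blood vessels, had 111 and 66 counts. The pore-forming Cldn2 went the other way with 7 and 55 counts.

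Junction genes outside the claudins included some that were higher and some that were lower in replicate 1. Of 31 listed, 30 averaged 10 or more counts, 5 were more than 2-fold higher in replicate 1, 2 were more than 2-fold lower and 23 lay within 2-fold. Their median log2 ratio was 0.32, and the share beyond 2-fold was 23.3%, near the 21.4% of all genes. With the trend on base composition and transcript length removed, their median was 0.06, beside -0.07 for all genes. The 5 genes more than 2-fold higher in replicate 1 were Marveld3, Tjp3, Crb3, Cgn and Prkcz. Marveld3, the third protein of the occludin and tricellulin family, had 326 counts in replicate 1 and 51 in replicate 2, a 5.79-fold difference. All 3 genes of that family were higher in replicate 1, with log2 ratios of 0.68 for Ocln, 1.21 for Marveld2 and 2.53 for Marveld3. Of all genes, 51.3% were higher there, and Marveld3 is named because it was beyond 2-fold.

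Scaffold genes of the ZO family differed in direction. Tjp3, which encodes ZO-3, had 2628 counts in replicate 1 and 515 in replicate 2, or 16.3 and 3.47 RPKM, a 4.68-fold difference, where Tjp1 had a log2 ratio of -0.20. Cgn, encoding the cytoplasmic plaque protein cingulin, had 5540 and 1865 counts and was 2.73-fold higher in replicate 1. Its paralogue Cgnl1 had 811 and 1562 counts and was more than 2-fold lower, with a log2 ratio of -1.07. The interval of Cgnl1 (-1.19 to -0.94) reached inside 2-fold. The polarity genes Crb3 (874 and 260 counts) and Prkcz (1313 and 487 counts) were 3.08-fold and 2.47-fold higher. Prkci, the other atypical protein kinase C, was equal at 16634 and 15212 counts, with a log2 ratio of 0.01 (-0.03 to 0.04). Jam2, a relative of F11r, had more counts than any other gene of this list, 19118 and 21999, and Ybx3, whose product binds ZO-1, had 10157 and 15024. Ildr2, named after its values were seen, had 13 and 31 counts and was the other gene more than 2-fold lower. Its interval (-2.43 to -0.40) also reached inside 2-fold.

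**Figure D4:**
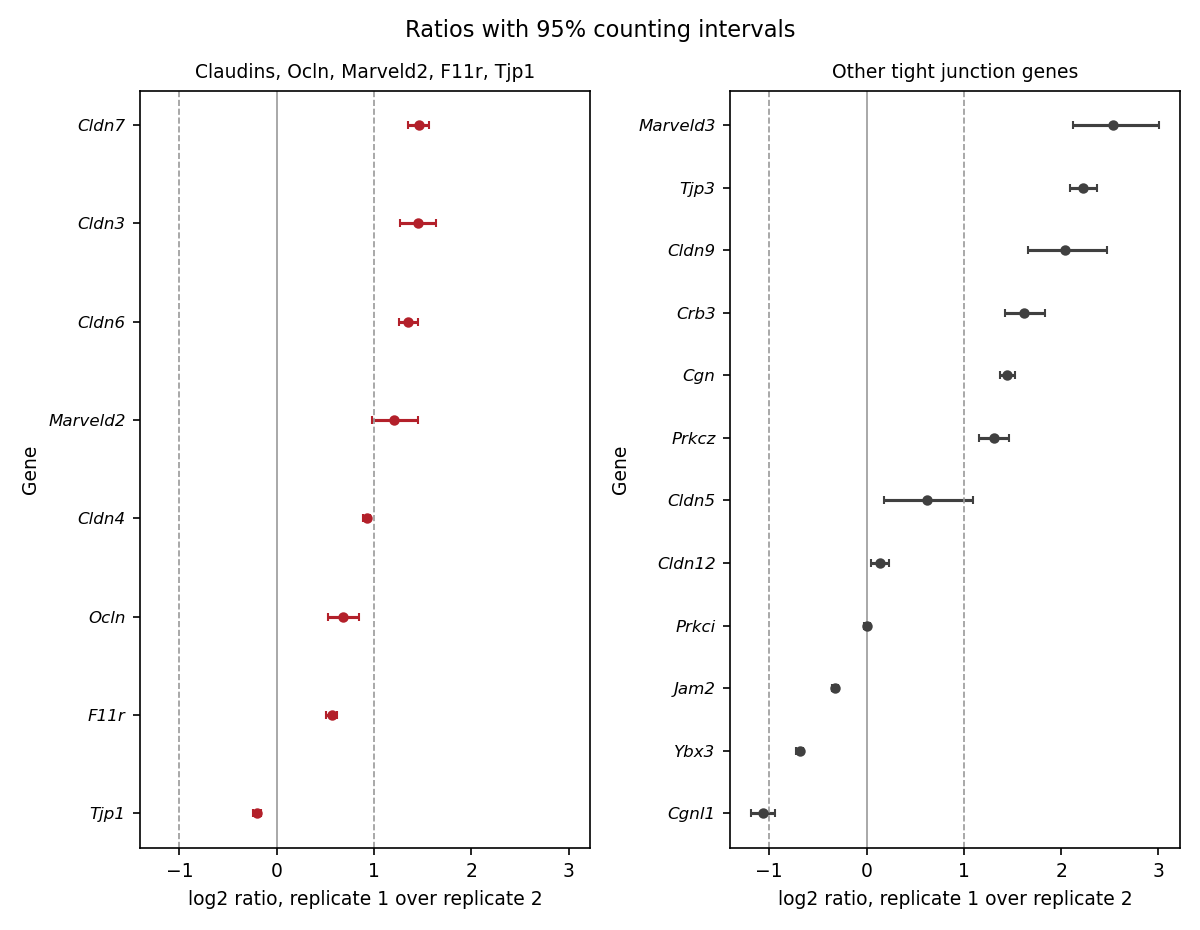
Log2 ratio of replicate 1 over replicate 2 with 95% counting intervals for 8 of the 9 genes (left) and for the 12 other claudin and junction genes that are beyond 2-fold with 100 or more counts on average or have the most counts of their list (right); the dashed lines mark 2-fold. The genes on the left run from Cldn7 (1.46) to Tjp1 (-0.20), and those on the right from Marveld3 (2.53) to Cgnl1 (-1.07).

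Of 16 listed regulators and adhesion genes of the epithelial state, 15 averaged 10 or more counts and 3 of these were beyond 2-fold, a share of 20% beside 21.4% for all genes. Cdh1, the adhesion molecule E-cadherin, had 38316 and 34304 counts with a log2 ratio of 0.04 (0.02 to 0.06). Epcam had 13562 and 11763 counts and a log2 ratio of 0.08, and the splicing regulator Esrp1 had 7976 and 5708 counts and a log2 ratio of 0.36. Ovol1, a repressor of mesenchymal genes, was 2.35-fold higher in replicate 1 (155 and 60 counts). Its interval (1.75 to 3.25) reached inside 2-fold. Zeb1, a repressor of epithelial genes, was lower in replicate 1, with 105 and 223 counts. Its log2 ratio was -1.20, and the interval (-1.56 to -0.87) also reached inside 2-fold. Zeb2, named after its values were seen, was lower too, with 6 and 21 counts and an interval (-3.53 to -0.57) that reached inside 2-fold. The other repressors of the list, also named after their values were seen, did not share that direction throughout. Snai1 was higher in replicate 1, with 334 and 225 counts and a log2 ratio of 0.45 (0.20 to 0.70). Twist1, with 189 and 160 counts, had a log2 ratio of 0.12 (-0.19 to 0.43), and Snai2 had 4 and 8 counts.

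Markers of trophectoderm were higher in replicate 1, as were Cldn3, Cldn4, Cldn6 and Cldn7 but not Cldn2, Cldn13 and Cldn34c1. Of 8 trophectoderm genes, 7 averaged 10 or more counts, and all 7 were more than 2-fold higher in replicate 1, as 14.2% of all genes were. Their median log2 ratio was 2.42. The log2 intervals of Eomes (0.74 to 1.31) and Gata3 (0.90 to 2.74) reached inside 2-fold. With the trend on base composition and transcript length removed, 6 of the 7 were beyond 2-fold, as were 3560 of all 17637 genes so corrected. The list was written with earlier results of these data known, so the tally is no independent comparison. Summed over the 8 genes, the level was 528.5 CPM in replicate 1 and 91.0 CPM in replicate 2. Krt8 had 8004 counts in replicate 1 and 1370 in replicate 2, Krt18 had 7162 and 880, and Krt7 had 2674 and 44. These keratin genes lie on chromosome 15, whose 683 genes had a median log2 ratio of 0.59, whereas none of the 9 junction genes does. Among the transcription factor genes, Cdx2 had 6 counts and 1 count, Elf5 70 and 11, Gata3 52 and 14, Eomes 334 and 151 and Tfap2c 3742 and 1311. Primitive endoderm markers summed to 18.3 CPM in replicate 1 and 10.6 CPM in replicate 2, and fibroblast markers to 27.3 and 18.0 CPM. Most of these sums came from Gata4 (14.05 and 7.65 CPM) and Thy1 (19.7 and 14.9 CPM). Of the markers averaging 10 or more counts, 2 of 5 primitive endoderm and 1 of 3 fibroblast genes were more than 2-fold higher in replicate 1. Pdgfra, with 83 and 87 counts, was the 1 of these 5 primitive endoderm genes that was lower there. The part of these cell types in the claudin differences was not tested. In such bulk samples, more cells of a type and more RNA per cell cannot be told apart.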

How the data were processed

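PolyA RNA of 2 Dicer_KO mESC libraries was analysed, grouped by their titles. The authors trimmed reads with Trimmomatic, aligned them with STAR (2.4.2a) to mm10 (GRCm38) and counted them per Ensembl gene with featureCounts (1.4.5-p1), leaving out reads on overlapping regions, per the labels with a reverse-stranded protocol. The deposited values are raw counts per gene. With 1 condition no model was fitted.

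Library sizes were scaled by TMM (edgeR 4.0.16, R 4.3.3) over 43629 genes. Symbols, positions and exon lengths came from GENCODE M21 (GRCm38), which is newer than the annotation counted, so RPKM are approximate. Of the listed identifiers, 1081 had no exon length. Ratio intervals are exact conditional ones and CPM intervals are Wilson intervals (scipy 1.17.1). They cover counting error only, as reads are not independent molecules. Genes averaging 10 or more counts were compared, with a pseudocount of 1. The steps were checked on simulated data. Promoter windows came from RefSeq (GRCm38.p6), found for 9 of 9 genes. The most upstream RefSeq start was taken. For Tjp1 this start, at 65371244, lies inside the annotated gene (65296165 to 65527781, minus strand).

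The genes and lists were chosen with earlier results of these data known. Named are Dicer1, the 9 genes, their neighbours, and in the lists of other claudins, junction genes and regulators those beyond 2-fold that averaged 100 or more counts and the 3 with most counts. Further genes of these lists were named after their values were seen. Of 27 other claudins listed, 26 were found. Alternatives were DESeq2 (1.42.0) size factors, total or raw counts, a pseudocount of 0.1, other minimums, thresholds and lengths, and leaving out a replicate.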

Additional observations from a re-analysis of the deposited data

How the results depend on the processing

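No paired analysis was possible because the data hold a single condition. Of the 17788 genes averaging 10 or more counts, 3803 (21.4%) were beyond 2-fold. The number was 7045 at 1.5-fold, 1016 at 4-fold, 7938 with no filter on low counts and 1827 among genes averaging 100 or more, where the minimums change how many genes are counted. Of the 8 genes that averaged 10 or more counts, 4 were beyond 2-fold and 0 beyond 4-fold. Of the 30 other junction genes with that minimum, 7 were beyond 2-fold. Beyond 1.5-fold were 13 of them (7045 of all 17788 genes) and beyond 4-fold 2 (1016 of all 17788). Under every scaling, pseudocount and correction tried, the log2 ratios of the 8 genes kept their sign, between -0.27 and -0.08 for Tjp1, between 0.58 and 1.05 for Cldn4 and between 0.97 and 1.57 for Cldn3. Scaling by total counts moved the median of all genes from 0.02 to 0.14. Of 44 ratios recomputed, 17 moved by more than their counting interval, and of 18 levels 1 did by more than the SD of the libraries, Tjp1 at 26.3 RPKM with the length of its longest transcript. The share of Cldn4 in the claudin level went from 65.6% to 62.0% with the length of the longest transcript. That of Cldn7 went from 9.30% to 12.82% and so passed Cldn6, which went from 12.39% to 12.43%. Leaving out 1 of 2 libraries moves a mean by less than their SD by construction and says nothing of stability. The correction for GC content and transcript length was chosen after seeing the data. With 1 library per passage, differences between the libraries have no replicate check.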

Other observations

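Genes next to the claudins did not all differ between the libraries as the claudins did. Mettl27, 2481 nt from Cldn4, had 2005 counts in replicate 1 and 1011 in replicate 2, a log2 ratio of 0.87 beside 0.92 for Cldn4. Wbscr25, whose annotated span overlaps the end of Cldn3 by 40 nt on the other strand, had 42 and 37 counts and a log2 ratio of 0.06 beside 1.45 for Cldn3. On chromosome 17, Tnfrsf12a before Cldn6 had 639 and 340 counts (log2 ratio 0.79) and Cldn9 after it 289 and 64 (2.04). Elp5, 336 nt from the end of Cldn7 on the other strand, had 1305 and 1446 counts and a log2 ratio of -0.27, where Cldn7 had 1.46. Rad17, 192 nt before the start of Marveld2, had 2083 and 2161 counts and a log2 ratio of -0.18, where Marveld2 had 1.21. Gtf2h2, on the other side of Ocln, had 1411 and 1576 counts and a log2 ratio of -0.28, where Ocln had 0.68. The lincRNA gene Gm26641, 216 nt from F11r, had 22 and 9 counts. Its log2 ratio was 1.09 (-0.01 to 2.47), where F11r had 0.57. The libraries are single ones, and these differences were not tested.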
